A study of Mus musculus with 14 samples.

Results

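NG2, encoded by Cspg4, and 9 other proteins of the brain matrix were examined in 14 mouse glioblastomas, with 7 tumours started by a Nestin-driven and 7 by an NG2-driven Cre recombinase. The genes were Cspg4, Cspg5, Ptprz1, the lecticans Acan, Vcan, Bcan and Ncan, the link protein gene Hapln1, and the tenascin genes Tnc and Tnr. They were taken as every probe annotated to 1 of these 10 symbols, which gave 25 of the 45281 probes on the array. Of these probes, 22 passed the filter on low signal (detection p under 0.05 on at least 3 of 14 arrays), and each of the 10 genes had at least 1 such probe among the 11786 genes tested.

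Type 1 tumours came from mice with Nestin-CreERT2 and Type 2 tumours from mice with NG2-CreERTM, on a mixed genetic background. In both types Cre acted on floxed alleles that included Nf1f/+ and Trp53f/f, and on the tdTomato reporter Rosa-lsl-tdTom. Tamoxifen was given by mouth 1 time at 6 to 8 weeks of age, with 10 mg for each 20 g of mouse, and the mice were kept until they showed symptoms. Each array measured total RNA of 1 whole tumour on single-colour Illumina mouse bead arrays, in 2 batches, with 3 Type 1 and 4 Type 2 tumours in batch 1 and 4 Type 1 and 3 Type 2 tumours in batch 2. The Nestin promoter is active in neural stem and progenitor cells and the NG2 promoter in oligodendrocyte progenitors and in pericytes, so the names of the types state which cells could undergo recombination and not what the tumours consist of.

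Chondroitin sulphate proteoglycans fill much of the space between cells in the brain. The lecticans aggrecan, versican, brevican and neurocan bind hyaluronan at one end, where link proteins such as Hapln1 fasten them, and tenascins at the other, and aggrecan-rich assemblies of this kind form perineuronal nets. NG2, neuroglycan C (Cspg5) and the receptor phosphatase Ptprz1 instead cross the cell membrane, and NG2 is a standard marker of oligodendrocyte progenitors and pericytes. Several of these genes are also expressed by gliomas. In whole tumour RNA, fewer cells of a type and less RNA per cell cannot be told apart.

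The results turn on Cspg4, Acan, Vcan and Hapln1, whose means were lower in Type 1, and the 250 bases in front of the annotated start of each are shown. Other genes, among them Tnr and Tnc, had lower means in Type 1 too, and their windows are not shown. The sequences are from RefSeq (GRCm38.p6), 5′ to 3′ on the gene's strand, and capitals mark the GC box GGGCGG on either strand. They lie at chr9:56864854-56865103 on the plus strand for Cspg4, chr7:79052976-79053225 on the plus strand for Acan, chr13:89742513-89742762 on the minus strand for Vcan and chr13:89540386-89540635 on the plus strand for Hapln1.
Cspg4: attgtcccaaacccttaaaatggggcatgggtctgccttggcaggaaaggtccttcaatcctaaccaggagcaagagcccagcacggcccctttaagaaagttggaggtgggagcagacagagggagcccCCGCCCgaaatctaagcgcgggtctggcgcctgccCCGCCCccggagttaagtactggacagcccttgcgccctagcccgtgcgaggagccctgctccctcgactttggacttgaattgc
Acan: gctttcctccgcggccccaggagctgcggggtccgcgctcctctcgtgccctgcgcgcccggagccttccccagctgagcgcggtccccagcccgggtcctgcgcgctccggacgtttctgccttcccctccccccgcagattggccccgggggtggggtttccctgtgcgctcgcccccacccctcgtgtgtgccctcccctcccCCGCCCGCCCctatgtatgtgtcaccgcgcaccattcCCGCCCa
Vcan: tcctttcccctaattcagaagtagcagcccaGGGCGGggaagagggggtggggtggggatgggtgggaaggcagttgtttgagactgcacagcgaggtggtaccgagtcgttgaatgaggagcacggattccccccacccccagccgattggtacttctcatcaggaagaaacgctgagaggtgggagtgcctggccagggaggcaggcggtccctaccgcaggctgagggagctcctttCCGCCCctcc
Hapln1: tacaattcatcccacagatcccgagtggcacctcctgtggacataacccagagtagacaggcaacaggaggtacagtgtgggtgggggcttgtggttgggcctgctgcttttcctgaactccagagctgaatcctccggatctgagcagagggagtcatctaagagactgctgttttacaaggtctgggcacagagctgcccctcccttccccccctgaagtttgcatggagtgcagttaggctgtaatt

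The GC box occurred 2 times in the Cspg4 window, 120 and 85 bases before the start. In the Acan window it occurred 3 times, at 44, 40 and 7 bases, where the first and the second overlap. The Vcan window held 2, at 219 and 10 bases, and the Hapln1 window held 0. Of 32526 mouse promoter windows of the same length, 33.0% held a GC box. GC content was 60.4% for Cspg4, 74.4% for Acan, 62.4% for Vcan and 54.4% for Hapln1, against a median of 52.4% over all windows. A SOX core motif (ACAAAG or ACAATG on either strand) occurred in 0 of the 4 windows and in 25.0% of all windows. The E-box CANNTG occurred once each in Acan and Vcan, in both at 179 bases, and in 66.2% of all windows. CCAAT occurred once each in Acan, at 110 bases, and Vcan, at 103 bases, and in 33.8% of all windows. A match or its lack describes the letters of these windows only.

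Between 19299 and 20868 probes were detected per array, and precision is limited by how many arrays there are. The arrays lay on 5 chips that each held a single type, so chip and type cannot be told apart. Type 1 replicate 1 and Type 2 replicate 5 stood apart in the summed signal of 3 measured choroid plexus markers (of 5 listed), at 14.75 and 13.80 on the log2 scale, with 6.38 to 10.03 in the other 12 tumours. Of 9 measured oligodendrocyte progenitor markers, all 9 were detected on every array, and of 7 astrocyte markers all 7 were. Values below are normalized log2 signals of the brightest probe that passed the filter, differences are Type 1 minus Type 2 from limma with batch as a term, and a gene is called at an adjusted p under 0.05 over all 11786 genes. A level belongs to its own probe and is not set against that of another gene.

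Acan and Vcan, which encode aggrecan and versican, were lower in Type 1 than in Type 2 and were the only 2 of the 10 genes called. Over all genes tested, 4.64% were called in either direction and 2.32% as higher in Type 2. Of the 10 differences, 7 were below 0, as were 50.6% of those of all genes. Acan and Hapln1 passed the filter through Type 2 arrays alone, so their tests rest on background values in Type 1. Both count among the 7 differences below 0 and enter the medians and unadjusted p-values that follow. The median over the 10 genes was -0.78, and -0.0055 over all genes tested. By batch it was -0.79 in batch 1 and -0.49 in batch 2. Without adjustment, p was under 0.05 for Acan, Vcan, Hapln1, Cspg4 and Tnr, all 5 lower in Type 1. Of all genes, 21.8% passed that mark, and 10.9% did so with the lower value in Type 1. Without the 2 tumours high in choroid plexus markers, a setting chosen after seeing the data, limma called 0 of the 10 genes, and 3 had an unadjusted p under 0.05 (Acan, Vcan, Tnr).

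**Figure D1:**
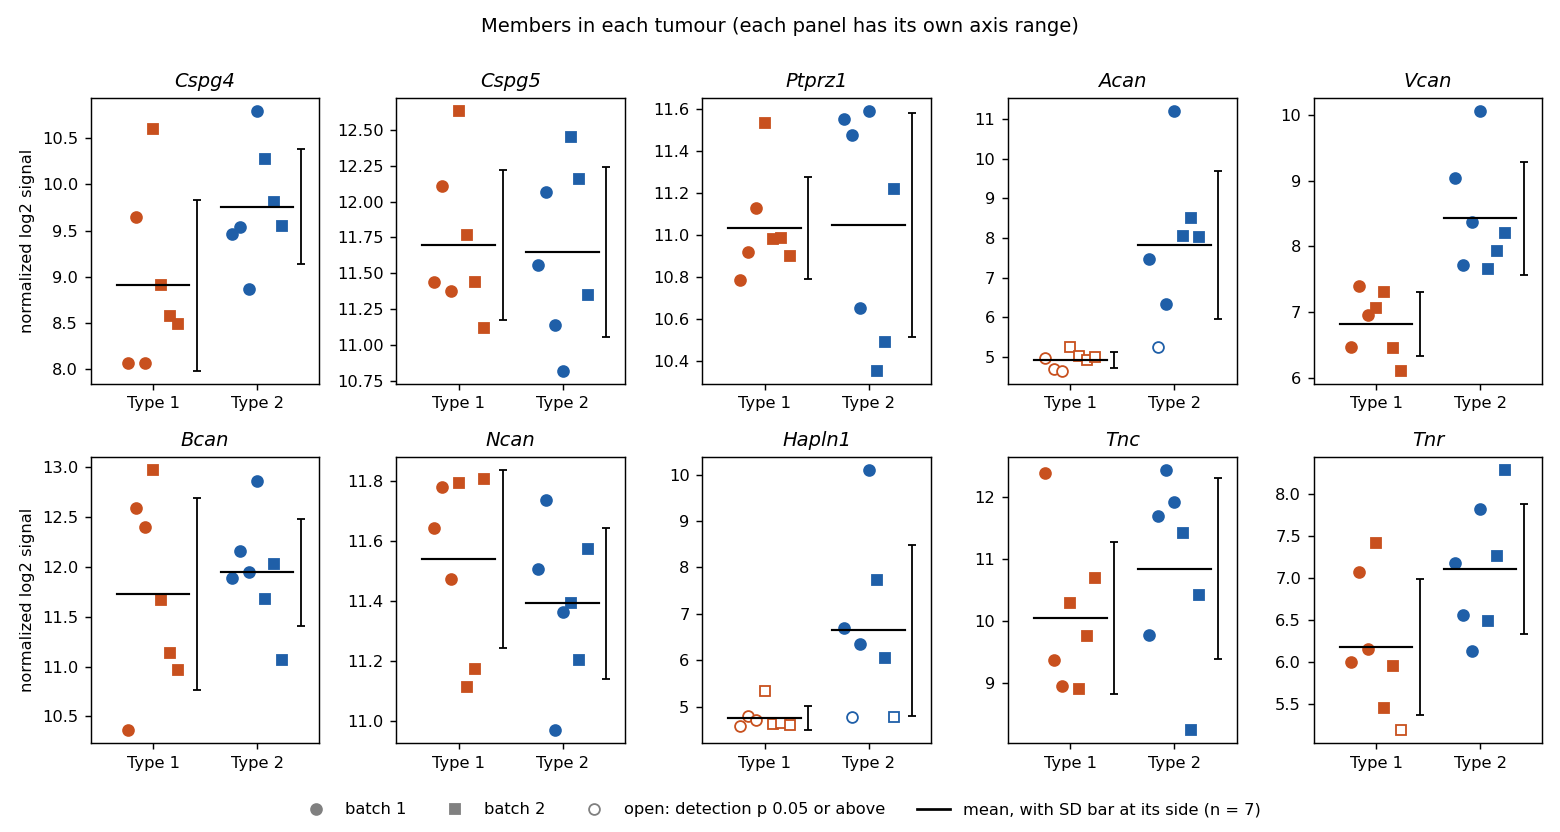
Normalized log2 signal (vertical axis, its own range in each panel) of the 10 genes in 7 Type 1 and 7 Type 2 tumours, with circles for batch 1, squares for batch 2, open symbols where detection p was 0.05 or above, a line at the mean and a bar of 1 SD at its side. By the brightest kept probe, the types do not overlap for Vcan, are close to separate for Acan, and overlap widely for Cspg5, Ptprz1, Bcan and Ncan.

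Cspg4 lies on chromosome 9, and its single probe (ILMN_2659224) was detected on all 14 arrays. Its lowest, median and highest values were 8.07, 8.58 and 10.60 in Type 1, against 8.87, 9.55 and 10.80 in Type 2. The types overlapped: 4 Type 1 tumours lay below every Type 2 tumour and 1 Type 2 tumour lay above every Type 1 tumour, while Type 1 replicate 4 was nearly as high as the highest Type 2 tumour, Type 2 replicate 4. The means were 8.91 in Type 1 (SD 0.92, n = 7) and 9.76 in Type 2 (SD 0.62, n = 7). The difference was -0.90 ± 0.39 (SE), with a 95% confidence interval of -1.73 to -0.0750. It did not pass the test over all genes (limma adjusted p = 0.190, unadjusted p = 0.0346).

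By type and batch, the mean of Cspg4 was 8.59 ± 0.91 (SD, n = 3) in Type 1 of batch 1, 9.14 ± 0.99 (SD, n = 4) in Type 1 of batch 2, 9.67 ± 0.81 (SD, n = 4) in Type 2 of batch 1 and 9.87 ± 0.37 (SD, n = 3) in Type 2 of batch 2. In that order from low to high, each step was smaller than the SD of the lower group. Between the types, Cspg4 differed by -1.07 in batch 1 and by -0.73 in batch 2. After Type 1 replicate 4 and Type 2 replicate 4, the highest of each type, were left out, the difference was -0.96.

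Acan lies on chromosome 7 and has 2 probes. On the brighter (ILMN_2645654) the lowest, median and highest values were 4.65, 4.96 and 5.25 in Type 1, against 5.24, 8.02 and 11.22 in Type 2. Aggrecan RNA was detected by this probe on 0 of 7 Type 1 arrays and on 6 of 7 Type 2 arrays. Type 2 replicate 2, where it was not detected either, was the only Type 2 tumour within the Type 1 range, and Type 2 replicate 4 was far above the rest. The difference was -2.96 ± 0.65 (SE; limma adjusted p = 0.0236), and -2.79 in batch 1 and -3.14 in batch 2. Since the Type 1 values were not above background, the fold is a bound. On this probe, with the background correction used here, the mean of Type 2 was at least 5.40-fold higher. This bound sets the Type 2 mean against the Type 1 mean after each Type 1 value below the lowest detected signal of its array was raised to that signal. It makes no allowance for batch, for the spread between tumours or for another probe or background correction, and neither do the bounds given below. Without background correction the difference on this probe was smaller, -1.46.

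On the other Acan probe the types did not overlap, with the highest Type 1 value just under the lowest Type 2 value. Its values were 4.98, 5.21 and 5.61 (lowest, median and highest) in Type 1, against 5.62, 7.41 and 9.57 in Type 2, and 2 of 7 Type 1 arrays and 7 of 7 Type 2 arrays detected it. The difference was -2.18 ± 0.47 (SE; limma adjusted p = 0.0210 over 18430 probes). The call of Acan was lost in batch 1 alone (adjusted p = 0.257), without Type 1 replicate 2 (adjusted p = 0.0552), without background correction (-1.46, adjusted p = 0.0931) and without the 2 tumours high in choroid plexus markers (-3.05, adjusted p = 0.0813). In the last of these settings the difference was as large as in all tumours.

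Vcan lies on chromosome 13 and encodes versican, the lectican of developing and remodelling tissue. Its brightest probe (ILMN_1247540) was detected on all 14 arrays, with a lowest, median and highest value of 6.10, 6.95 and 7.39 in Type 1, against 7.66, 8.20 and 10.07 in Type 2. On this probe every Type 1 tumour lay below every Type 2 tumour, which held for 1.23% of all genes in either direction. Type 2 replicate 4 was again the highest. The difference was -1.53 ± 0.33 (SE), or 2.89-fold higher in Type 2, with a 95% confidence interval of -2.24 to -0.83 (limma adjusted p = 0.0212). It was -1.86 in batch 1 and -1.20 in batch 2, and the call was lost in either batch alone (limma adjusted p = 0.118 and 0.105). It was -0.86 as the mean of its kept probes (adjusted p = 0.0445) and -0.95 without background correction (adjusted p = 0.0428). Without the 2 tumours high in choroid plexus markers it was -1.48, with an adjusted p of 0.0742.

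The 6 Vcan probes did not give 1 value. Of the 5 that passed the filter, a second was called, with -1.17 (limma adjusted p = 0.0249), and 3 were not, with -0.95 (adjusted p = 0.0794), -0.49 (adjusted p = 0.362) and -0.18 (adjusted p = 0.747). The sixth was detected on no array. The types overlapped on every kept Vcan probe but the brightest. On the second called, the highest Type 1 value was 7.85 and the lowest Type 2 value was 6.98. Which transcript each probe reads was not examined. Over all 25 probes of the 10 genes, 4 of the 22 that passed the filter were called, 2 each of Acan and Vcan, against 4.29% of all probes. On the authors' processed values the same 4 were called, against 4.3% of all probes. Of the 22 differences 18 were below 0, and the 4 above 0 belonged to Cspg5, Ncan and Ptprz1.

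**Figure D2:**
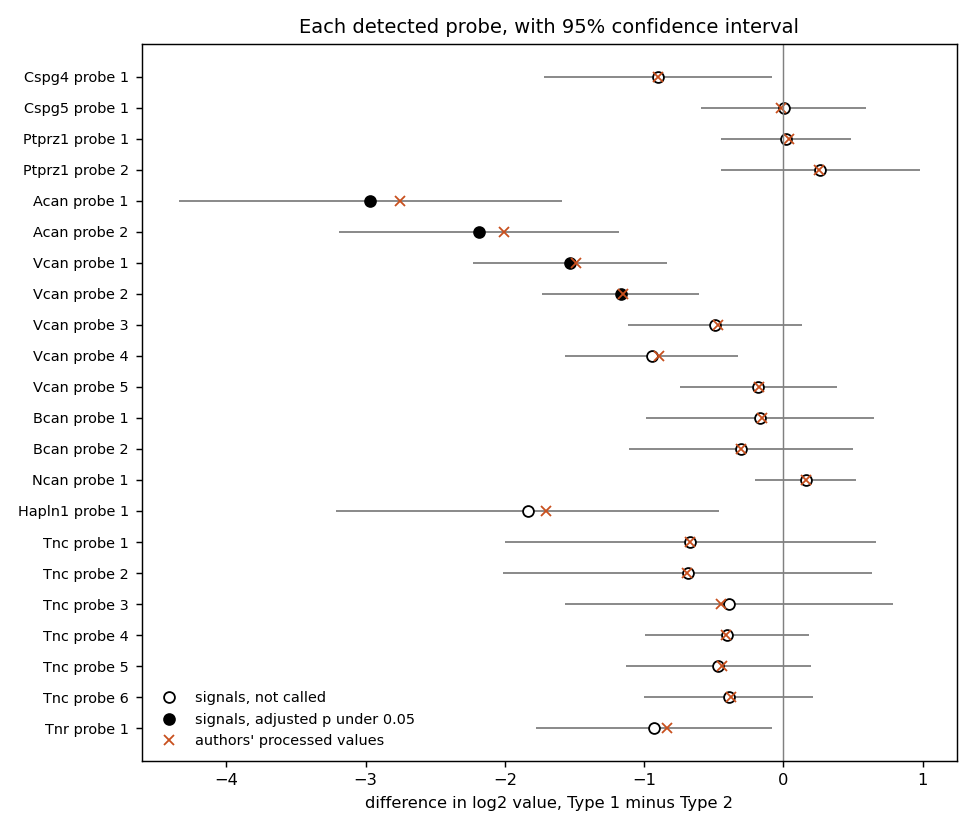
Difference in log2 value, Type 1 minus Type 2 (horizontal axis), for each of the 22 probes that passed the filter, with the 95% confidence interval from the signals (line), filled points for an adjusted p under 0.05 and crosses for the authors' processed values. The 2 Acan probes and 2 of 5 Vcan probes are filled, and crosses lie on or near the points.

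Hapln1, the link protein that locks lecticans to hyaluronan, lies next to Vcan on chromosome 13, with 0 protein-coding genes between them. Its only probe (ILMN_2753342) had a lowest, median and highest value of 4.58, 4.64 and 5.34 in Type 1, against 4.77, 6.35 and 10.10 in Type 2. Detection was reached on 0 of 7 Type 1 arrays and on 5 of 7 Type 2 arrays. Type 2 replicates 2 and 7 lay among the Type 1 tumours, and the other 5 lay above all of them. The difference was -1.84 ± 0.65 (SE), with a 95% confidence interval of -3.23 to -0.45, and the mean of Type 2 was at least 2.36-fold higher. Hapln1 was not called (limma adjusted p = 0.118, unadjusted p = 0.0132), and its differences were -2.28 in batch 1 and -1.39 in batch 2.

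Each of the 4 lecticans has a link protein gene as its neighbour, with 0 protein-coding genes between the members of a pair in the GRCm38.p6 gene table. The other 3 link protein genes had differences above 0. Hapln2, beside Bcan, differed by 1.06 ± 0.51 (SE; limma adjusted p = 0.242), by 2.34 in batch 1 and by -0.21 in batch 2. Hapln3, beside Acan, differed by 0.51 (adjusted p = 0.406), and Hapln4, beside Ncan, by 0.15 (adjusted p = 0.905). None of the 3 passed the limma test, adjusted or not.

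Bcan and Ncan, the lecticans made mainly in the nervous system, were detected on every array of both types. The values of Bcan, on chromosome 3, were 10.36, 11.67 and 12.97 (lowest, median and highest) in Type 1, against 11.07, 11.95 and 12.86 in Type 2. The types overlapped over most of their range. The difference was -0.17 ± 0.38 (SE; limma adjusted p = 0.847), with a 95% confidence interval of -0.99 to 0.65. It was -0.43 in batch 1 and 0.09 in batch 2, and it turned to 0.18 without Type 1 replicate 1, the lowest tumour. Ncan, on chromosome 8, had values of 11.11, 11.64 and 11.81 in Type 1, against 10.97, 11.39 and 11.74 in Type 2. It spanned 0.84 over all 14 tumours, the narrowest span among the 10 genes, where Acan spanned 6.57. Its difference was 0.16 ± 0.17 (SE; limma adjusted p = 0.634). The 95% confidence interval of -0.20 to 0.52 does not reach the difference of Acan or of Vcan on the brightest probe of each. It does hold the difference of -0.18 on another Vcan probe, and the genes were not tested against each other.

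**Figure D3:**
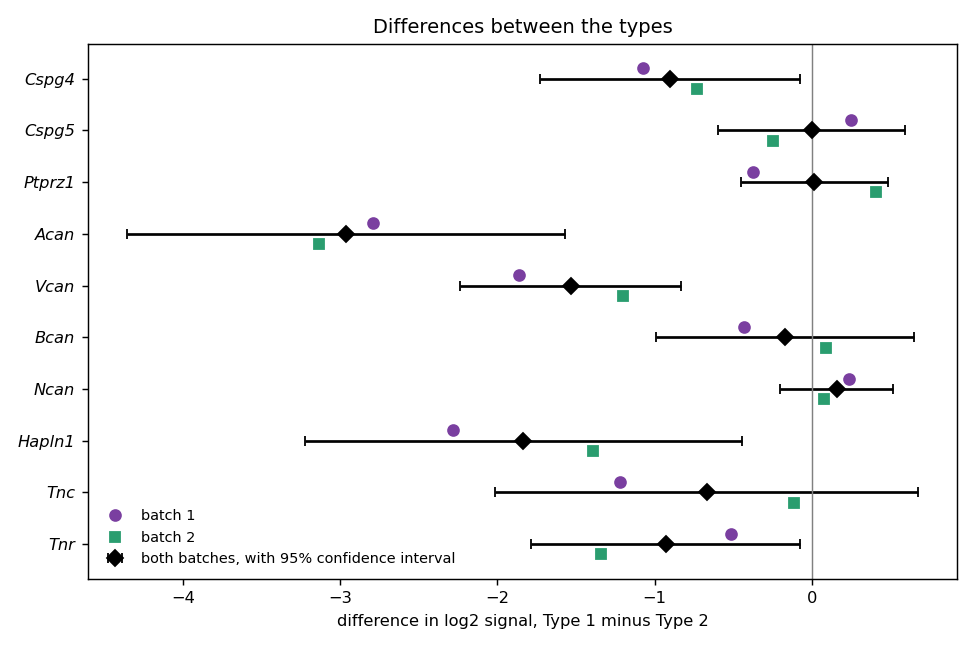
Difference in log2 signal, Type 1 minus Type 2 (horizontal axis), for the 10 genes over both batches (diamonds, with 95% confidence intervals) and within batch 1 (circles) and batch 2 (squares). Acan, Vcan and Hapln1 lie farthest below 0, and Cspg5, Ptprz1 and Bcan change side between the batches.

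Cspg5 and Ptprz1, which cross the membrane as NG2 does, had differences near 0. Cspg5, on chromosome 9, had values of 11.12, 11.44 and 12.63 (lowest, median and highest) in Type 1, against 10.82, 11.56 and 12.45 in Type 2. The values of both types were mixed throughout. The difference was 0.002 ± 0.28 (SE; limma adjusted p = 0.998), with a 95% confidence interval of -0.59 to 0.60. Batch 1 gave 0.25 and batch 2 gave -0.25. Ptprz1, a receptor phosphatase that binds pleiotrophin and tenascins, lies on chromosome 6. It had values of 10.78, 10.98 and 11.53 in Type 1, against 10.35, 11.22 and 11.59 in Type 2. Its Type 2 values fell into 4 high and 3 low tumours on either side of most Type 1 tumours. The difference was 0.02 ± 0.22 (SE; limma adjusted p = 0.975), with a 95% confidence interval of -0.45 to 0.49. It was -0.38 in batch 1 and 0.41 in batch 2, and the change of sign did not pass the interaction test (limma adjusted p = 0.343, unadjusted p = 0.0674).

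The tenascins bind the lecticans and had lower means in Type 1, without passing the test. Tnr, or tenascin-R, on chromosome 1, is made by oligodendrocyte lineage cells and some neurons. Its values were 5.19, 6.00 and 7.42 (lowest, median and highest) in Type 1, detected on 6 of 7 arrays, against 6.13, 7.18 and 8.28 in Type 2, detected on 7 of 7. There were 4 Type 1 tumours below every Type 2 tumour, and Type 1 replicate 4 was the highest of its type. The difference was -0.93 ± 0.40 (SE), with a 95% confidence interval of -1.79 to -0.0710 (limma adjusted p = 0.194). Batch 1 gave -0.52 and batch 2 gave -1.34. Tnc, or tenascin-C, on chromosome 4, is a matrix protein of developing and injured tissue. It spanned 8.90, 9.76 and 12.37 in Type 1, against 8.24, 11.42 and 12.42 in Type 2. Both types held tumours near the top and the bottom of that range, with Type 1 replicate 1 high and Type 2 replicate 6 lowest of all. The difference was -0.67 ± 0.63 (SE; limma adjusted p = 0.587), with a 95% confidence interval of -2.01 to 0.68. It was -1.22 in batch 1 and -0.12 in batch 2, and it moved between -1.13 and -0.32 when single tumours were left out. Its 6 probes that passed the filter gave -0.69 to -0.39.

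The batches were also compared. A test of the type by batch interaction called 0 of the 10 genes (limma), with 0 at an unadjusted p under 0.05, where 0% of all genes were called and 16.4% passed without adjustment. The batch term called 0 of the 10 (limma), again with 0 at an unadjusted p under 0.05, while 10.7% of all genes were called. Under median scaling in place of quantile normalization, Vcan and Ptprz1 were called between the batches.

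The same tumours stood high for several of the genes. Of the 8 genes detected in Type 1 by the probe used, Type 1 replicate 4 was the highest Type 1 tumour for 5: Cspg4, Cspg5, Bcan, Ptprz1 and Tnr. Type 2 replicate 4 was the highest Type 2 tumour for 6, Cspg4, Acan, Vcan, Bcan, Ptprz1 and Hapln1, and the highest of all 14 for 5. It was also the lowest Type 2 tumour for Cspg5.

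Cspg4 was set beside the other 9 genes, 3 markers of oligodendrocyte progenitors and 3 of pericytes and other mural cells, after the mean of each type and batch was subtracted. These 15 relations over 14 tumours were tested by exact permutation within the 4 groups of type and batch, two-sided, with Benjamini-Hochberg adjustment over the 15. Bcan moved with Cspg4 (r = 0.76, rho = 0.77, exact permutation p = 0.0026, adjusted p = 0.0391). So did Pdgfra, the PDGF receptor of oligodendrocyte progenitors (r = 0.79, rho = 0.74, exact permutation p = 0.0122, adjusted p = 0.0459). Olig2, a transcription factor of the same lineage, gave r = 0.78 and rho = 0.78 (exact permutation p = 0.0082, adjusted p = 0.0459). Hapln1 gave r = 0.57 and rho = 0.58 (exact permutation p = 0.0107, adjusted p = 0.0459 for r and 0.0966 for rho), but its probe reached detection in 0 of 7 Type 1 tumours, against 5 of 7 Type 2 tumours. The other values are background, so its relation is not counted as one with Cspg4.

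The 2 tumours farthest from the median of Cspg4 were again Type 1 replicate 4 and Type 2 replicate 4. Without them r was 0.60 for Bcan, 0.78 for Pdgfra and 0.63 for Olig2, but 0.31 for Hapln1, whose relation rests on those tumours. Within batch 1 and batch 2, r was 0.63 and 0.92 for Bcan, 0.78 and 0.83 for Pdgfra, and 0.91 and 0.67 for Olig2. Tnr, with r = 0.70, did not pass (exact permutation adjusted p = 0.0593), nor did the progenitor marker Sox10, with r = 0.43. The mural markers gave r = 0.29 for Pdgfrb, 0.07 for Rgs5 and -0.10 for Kcnj8, and Tnc gave -0.03. Within batch 1 and batch 2 these differed in sign, with -0.04 and 0.72 for Pdgfrb, 0.93 and -0.16 for Rgs5, 0.53 and -0.79 for Kcnj8, and -0.21 and 0.19 for Tnc. On the authors' processed values only Bcan passed.

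**Figure D4:**
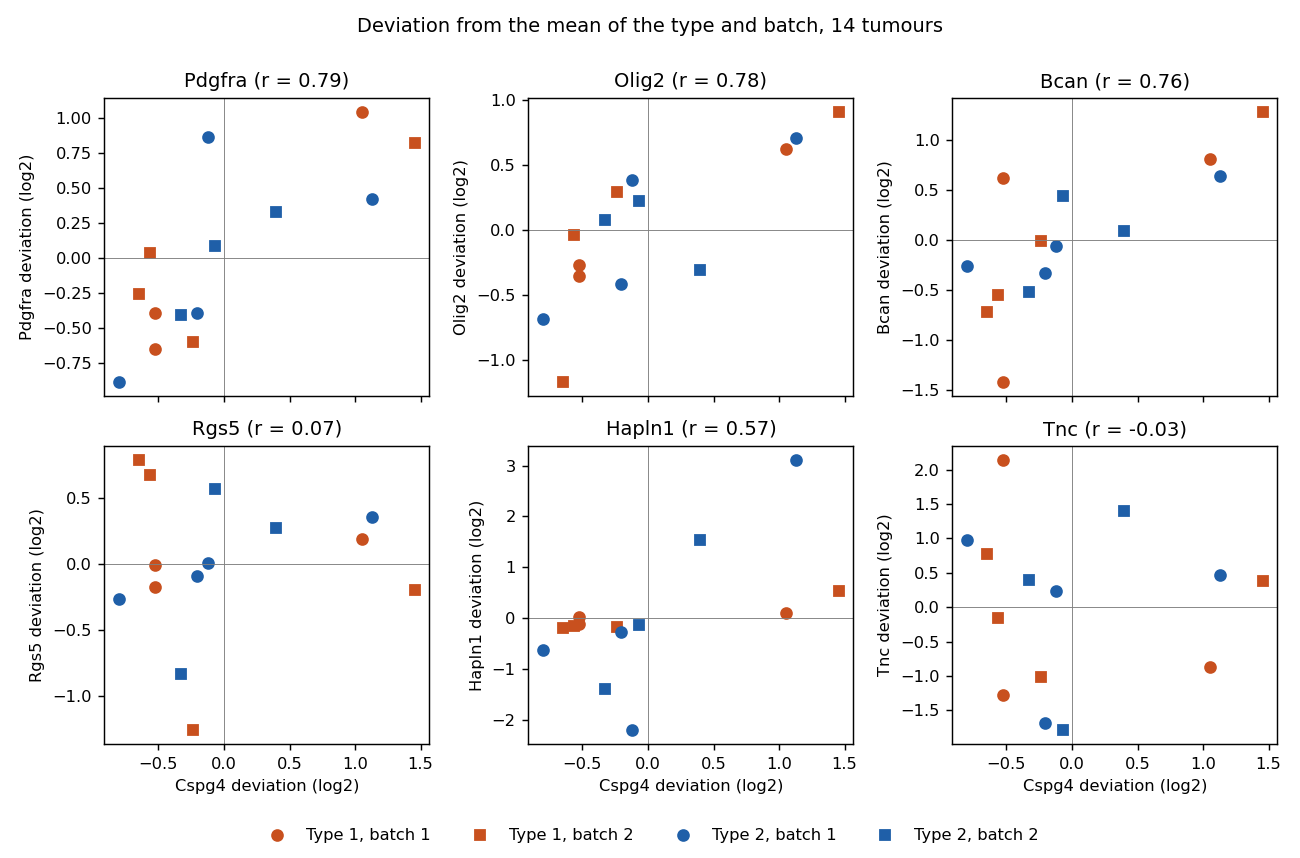
Deviation of each tumour from the mean of its type and batch, in log2 signal, for Cspg4 (horizontal axis) and 6 other genes (vertical axes), with colours for the type and circles and squares for batches 1 and 2. Points follow a rising line for Pdgfra, Olig2 and Bcan and none for Rgs5 and Tnc, and for Hapln1 Type 2 replicate 4 lies far above the rest.

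Over all 11786 genes, after the mean of each batch was subtracted, the 5 named genes most like Cspg4 over the 14 tumours were Dscam (r = 0.86), Cacng4 (0.86), Tmem63b (0.85), Gp1bb (0.85) and Strn4 (0.85). Dscam encodes an adhesion molecule of neurons, Cacng4 an auxiliary subunit of AMPA receptors, and Tmem63b an ion channel of the membrane. With the type means subtracted too, r was 0.86, 0.81, 0.79, 0.79 and 0.87 in the same order. None of the 5 was called between the types. Among the matrix genes, Tnr came nearest, at r = 0.74 and rank 55, followed by Vcan (0.73), Hapln1 (0.71, over mostly background values) and Bcan (0.71). After the type means were subtracted as well, Bcan came nearest (0.76), with 0.70 for Tnr, 0.60 for Vcan and 0.57 for Hapln1. These r describe tumours that share arrays and normalization.

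Markers of several cell types differed between the types along with Acan and Vcan, and their part in the result was not tested. Of 9 measured oligodendrocyte progenitor markers (of 10 listed), Sox10 was lower in Type 1 (-1.79 ± 0.46, SE; limma adjusted p = 0.0408), 8 were not called, and the median was -0.59. The log2 of their summed signals was 14.03 to 15.95 in Type 1 and 15.44 to 16.14 in Type 2. Sums of markers below are given in the same way. Of 9 mural markers (of 10), Mcam (-3.09) and Rgs5 (-1.46) were lower in Type 1 and 7 were not called, with sums of 10.46 to 11.87 in Type 1 and 11.85 to 13.50 in Type 2. The median of the mural markers was -1.02, and 8 of the 9 were below 0, as were 50.6% of all genes. Of the 9, 7 had an unadjusted p under 0.05 (limma), against 21.8% of all genes. Of 5 fibroblast and meningeal markers (of 6), Lum and Col1a1 were lower in Type 1, with sums of 8.11 to 10.59 in Type 1 and 9.64 to 12.24 in Type 2. The Col1a1 probe reached detection on 0 of 7 Type 1 arrays, against 6 of 7 Type 2 arrays, so its test rests on background values in Type 1. Of 7 astrocyte markers, Aqp4 (2.12) and Slc1a2 (2.03) were higher in Type 1 and 5 were not called, with sums of 15.01 to 16.32 in Type 1 and 14.08 to 14.99 in Type 2.

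Other cell type markers moved too. Of 8 neuronal markers (of 9), Rbfox3 (2.65) and Kcnc1 (2.33) were higher in Type 1, and the median was 1.22. Of 6 endothelial markers, Vwf (-1.78) and Tie1 (-0.87) were lower in Type 1, and the median was -0.82. The Tie1 probe reached detection on 1 of 7 Type 1 arrays, against 7 of 7 Type 2 arrays, so its test rests mostly on background values in Type 1. Of 5 myelin markers (of 6), Cldn11 (-0.74) was lower in Type 1 and 4 were not called, 3 of them with values above 0 (Mobp 1.21, Mog 0.29 and Mag 0.16), and the median was 0.16. Of 2 measured Schwann cell markers (of 7), Dhh (-4.20) was lower in Type 1 and Gap43 (0.56) was not called. Of 4 microglia and macrophage markers (of 6), limma called 0, with 0 at an unadjusted p under 0.05, and likewise 0 and 0 of the 3 choroid plexus markers. Their part in the differences of the 10 genes was not tested.

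Aggrecan and Hapln1 are also made by cartilage, so cartilage markers were read beside them. Of 5 measured (of 7 listed), Col9a1 was lower in Type 1 (-1.99 ± 0.44, SE; limma adjusted p = 0.0240) and 4 were not called. Its probe reached detection on 2 of 7 Type 1 arrays, against 7 of 7 Type 2 arrays. Matn1, a cartilage matrix protein, had the next lowest p, with a difference of -1.57 (limma adjusted p = 0.260), -0.60 in batch 1 and -2.54 in batch 2, and was detected on 2 of 7 Type 1 arrays, against 5 of 7 Type 2 arrays. Col2a1, the main cartilage collagen, chosen after its values were seen, differed by 0.01, with detection on 7 of 7 Type 1 arrays, against 6 of 7 Type 2 arrays. Type 2 replicate 4 had the highest Col2a1 of all tumours, 11.07, beside the highest Acan and Hapln1, while Type 1 replicates 2 and 5 had Col2a1 at 10.27 and 10.06 with Acan not detected by the brighter probe. The summed cartilage markers spanned 7.93 to 10.42 in Type 1 and 8.04 to 11.41 in Type 2.

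Of 74 measured genes in 7 lists of related matrix genes and of genes that build, bind and cut these proteoglycans, 6 were called (8.11%, against 4.64% of all genes) and 23 had an unadjusted p under 0.05 (31.1%, against 21.8% of all genes). Both counts include Ust, which passed the filter through Type 2 arrays alone, so its test rests on background values in Type 1. Hspg2, which encodes the basement membrane proteoglycan perlecan, was lower in Type 1, with a mean of 8.52 in Type 1 (SD 0.39, n = 7) and 10.39 in Type 2 (SD 0.94, n = 7). It differed by -1.89 ± 0.37 (SE; limma adjusted p = 0.0132). Spock2, or testican-2, was higher in Type 1, by 1.08 ± 0.24 (SE; limma adjusted p = 0.0233). The other 12 of 14 measured heparan sulphate proteoglycan genes (of 15) did not pass, 6 of the 14 had an unadjusted p under 0.05, and the median was -0.13. Of 6 small leucine-rich proteoglycans (of 8), Lum, or lumican, differed by -2.47 ± 0.49 (SE; limma adjusted p = 0.0143) and Bgn, or biglycan, by -1.53 ± 0.39 (SE; limma adjusted p = 0.0404), both lower in Type 1, while 4 were not called, and the median was -0.50. Lum is also among the fibroblast markers above.

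Adamts1, a protease that cuts aggrecan and versican, was lower in Type 1, with a mean of 6.88 in Type 1 (SD 1.02, n = 7) and 8.73 in Type 2 (SD 1.06, n = 7). It differed by -1.67 ± 0.40 (SE; limma adjusted p = 0.0333). The other 6 of 7 measured lectican-cleaving proteases (of 9) did not pass, and 5 of the 7 had an unadjusted p under 0.05, in both directions. Beside Adamts1 these were Mmp9 (-1.34, limma adjusted p = 0.113) and Mmp14 (-1.03, adjusted p = 0.156) with values below 0, and Adamts9 (1.97, adjusted p = 0.161) and Mmp2 (1.43, adjusted p = 0.209) with values above 0. The median of the 7 was -0.34. Of 20 genes of chondroitin sulphate synthesis and sulphation (of 23), limma called Ust, which adds sulphate to uronic acid (adjusted p = 0.0333). Its probe reached detection on 0 of 7 Type 1 arrays, against 6 of 7 Type 2 arrays, so it passed the filter through Type 2 alone and its test rests on background values in Type 1. The mean of Type 2 was at least 1.16-fold higher. The other 19 did not pass, 4 of the 20 had an unadjusted p under 0.05, among them the sulphate donor synthase Papss1 (-0.55, limma adjusted p = 0.142), and the median of the 20 was -0.17.

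Of 7 measured genes of hyaluronan synthesis, turnover and binding (of 12), limma called 0, and 2 had an unadjusted p under 0.05. These were the hyaluronan synthase Has2 (-1.59, limma adjusted p = 0.0655) and the hyaluronan receptor Cd44 (-1.08, adjusted p = 0.0988), and the median of the 7 was -0.32. Of 17 ligands and receptors of the matrix genes (of 18), limma called 0 and 4 had an unadjusted p under 0.05. The lowest p were those of the integrin subunit Itgb1 (-0.66, limma adjusted p = 0.0602) and fibronectin, Fn1 (-0.96, adjusted p = 0.0689), and the median of the 17 was -0.19. Each of these lists but the link proteins (0.51) had a median below 0, where the median of all genes was -0.0055.

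**Figure D5:**
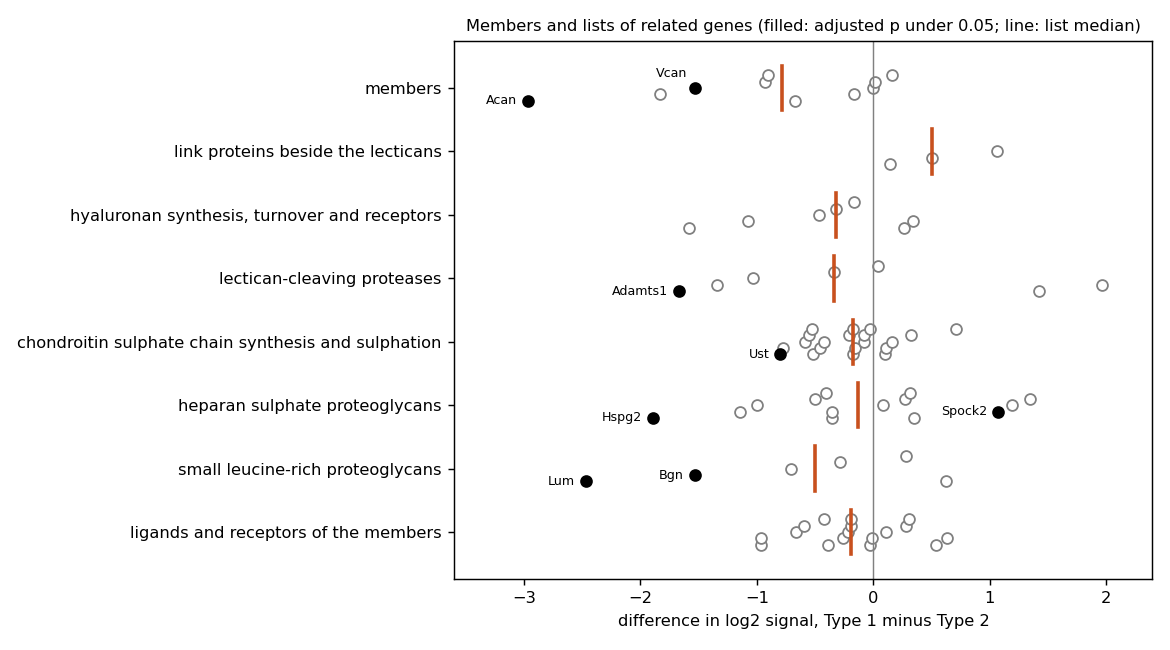
Difference in log2 signal, Type 1 minus Type 2 (horizontal axis), for each measured gene of the 10 matrix genes and of 7 lists of related genes, with filled points for an adjusted p under 0.05 and a line at the median of each list. The median of the 10 matrix genes is -0.78, and these include Acan and Hapln1, which passed the filter through Type 2 arrays alone. Of the sets shown, the link proteins beside the lecticans have the only median above 0, 0.51.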

How the data were processed

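Total RNA of 14 whole tumours was measured, 1 per array. The first deposited table gave, per the file headers and without normalization, the mean bead intensity of 45281 probes on every array, each with its detection p-value. The authors' other deposited table, of 38502 probes, was on a log2 scale, and its method was not given in the sources used here. In that table the median of each array was 2.67 to 2.69 while single values ran from -23.94 to 29.39, so how each probe was centred is unknown, and this table served only for differences between arrays. Over the arrays, those values and log2 signals of the kept probes of the 10 genes correlated at r between 0.915 and 0.993 after batch means were subtracted, so the direction was that of log2 signal. The submitters' processing notes name BeadStudio without a version.

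Background correction (normexp, with the background inferred from the detection p-values, and an offset of 16), quantile normalization and the log2 step were done with neqc in limma 3.58.1 (R 4.3.3). Median signals were 175.7 to 209.1 in batch 1 and 119.6 to 131.5 in batch 2. Gene names came from the platform annotation, updated through Entrez identifiers for 31976 probes against RefSeq's GRCm38.p6 gene table, which also gave chromosomes and neighbours. Of the probes, 32034 had 1 symbol, 16 had several and 13231 had none here. Probes with a detection p under 0.05 on at least 3 arrays were kept (18430), and the kept probe with the highest mean stood for its gene (11786 genes). Types were compared by lmFit and eBayes of limma in a model of type and batch, and p-values were adjusted over all genes by Benjamini-Hochberg. The fit was tested on simulated data. Promoter windows were matched by symbol for 9 of the 10 genes. The array files name no genome build.

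The 10 genes and all lists were chosen with earlier results of these data known. Named genes were the 10, the called genes of each list or its 2 lowest p-values, and the 5 genes most like Cspg4, leaving out predicted transcripts. Markers of cell types were named where called, and others, Col2a1 among them, were chosen after their values were seen. The labels describe separate tumours, and limma p-values judge a difference against the spread between them. In the differences between the types, chip and type cannot be told apart. Replicate numbers follow accession order. Alternatives covered batch, chip, background, scaling, the authors' values, detection, probe choice, weights, thresholds and each tumour left out. Trp53 was not analysed here, and some of the shared genotype is not reported here.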

Additional observations from a re-analysis of the deposited data

Results flagged for a closer look

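The background value of Hapln1 in Type 1 replicate 4 was marked against those of the other Type 1 tumours. It was 5.34, with 4.58 to 4.80 in the other 6, and its gap to the nearest of them was 0.711 of the range of the group, above Dixon's 95% critical value for a group of 7. The probe was not detected on that array, nor on any other Type 1 array. Values at background have no order, so the mark says nothing of Hapln1 expression. Of 20 groups examined, 1 was marked in this way, and chance marks about 1 in 20.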

How the results depend on the processing

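No paired analysis was possible because replicate numbers were given in accession order and pair nothing. Of the 10 genes, 0 were called in batch 1 alone, 1 in batch 2 alone (Acan), 1 without background correction (Vcan), 1 with detection p under 0.01 on at least 7 arrays (Vcan, with Acan then not tested) and 0 when the 2 tumours with the highest choroid plexus markers were left out. Leaving out each tumour gave 1 to 2. The other settings called Acan and Vcan. Over all genes, 166 were called in batch 1 alone, 123 in batch 2 alone, 1135 at an adjusted p under 0.1, 325 with a difference of at least 2-fold, 106 without the choroid plexus tumours, 243 without the highest Cspg4 tumour of each type and 195 to 639 with each tumour left out in turn, against 547. Fewer tumours enter the settings that take 1 batch or leave tumours out. The settings at an adjusted p under 0.1 and at a difference of at least 2-fold apply another cutoff to the same fit. For the rest the cause was not tested.

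Cspg4 was not called under any setting, with differences of -1.07 to -0.67 over 16 settings and -1.14 to -0.71 with each tumour left out in turn. With each tumour left out in turn, Acan gave -3.34 to -2.41, Vcan -1.68 to -1.31, Hapln1 -2.20 to -1.32, Tnr -1.12 to -0.67 and Tnc -1.13 to -0.32. Over the other settings the ranges were -3.14 to -1.46 for Acan, -1.86 to -0.86 for Vcan, -2.28 to -0.84 for Hapln1, -1.34 to -0.42 for Tnr and -1.22 to -0.12 for Tnc. Ncan stayed above 0 in all of these, and Ptprz1, Cspg5 and Bcan changed sign. Ptprz1 gave -0.0158 with no batch term, -0.38 in batch 1 alone, -0.0087 without the highest Cspg4 tumours, -0.0258 without the choroid plexus tumours and -0.10 to 0.10 with each tumour left out in turn. Cspg5 gave -0.25 in batch 2 alone, -0.0146 with the authors' values, -0.24 without the highest Cspg4 tumours and -0.13 to 0.13 with each tumour left out in turn. Bcan gave 0.0927 in batch 2 alone, 0.21 without the choroid plexus tumours and -0.39 to 0.18 with each tumour left out in turn. Between the batches 2 genes, Vcan and Ptprz1, were called under median scaling. With the authors' values 1 of the 15 relations of Cspg4 passed, against 4 with that of Hapln1, and the adjusted p was 0.0555 for Pdgfra, 0.0555 for Olig2 and 0.0579 for Hapln1. Settings that left out tumours by their Cspg4 or choroid plexus values were chosen after seeing the data. Values near the detection floor, as those of Acan and Hapln1 in Type 1, have no order among themselves.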
